A study of Mus musculus with 4 samples.

Results

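Chemokines are small secreted proteins that direct the movement of white blood cells, and chemokine receptors are the G protein-coupled receptors on the cell surface that read them. Of 52 mouse genes in RefSeq whose symbol is Ccl, Cxcl, Xcl, Cx3cl, Ccr, Cxcr, Xcr or Cx3cr followed by a number alone, 49 matched a probe by name: 32 ligand genes and 17 receptor genes, with 61 probes. They were 49 of 33378 genes or transcripts on the arrays, 16356 of which had a symbol. Ccl26, Cxcl11 and Ccr10 matched no probe by name and were not analysed here.

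RNA of 4 samples was measured, each on 1 single-colour Agilent array. The E14 embryonic stem (ES) cells are a line of strain 129 (n = 1). The induced pluripotent stem (iPS) lines 7 and 13 were made from bone marrow mononuclear cells (BMMNCs) of strain C57BL/6, from mice transgenic for Oct4-EGFP (n = 2), and the BMMNCs themselves, labelled without the reporter, were of strain C57BL/6 (n = 1). ES and iPS cells had been grown on feeder layers of irradiated mouse embryonic fibroblasts in medium with serum and leukaemia inhibitory factor, and the feeders were reduced by letting them settle on gelatin before RNA was taken. The reprogramming factors, the age and sex of the mice, and whether a line is 1 clone are not given in the sources used here. Strain, origin and reporter all separate the iPS lines from ES cells and cannot be told apart. Line numbers are the labels' only statement that the iPS samples are separate, so any p-value below rests on the spread between these particular samples, which can be technical in part.

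A ligand binds its receptor on a leukocyte, G proteins of the Gi class are activated, and the cell turns and moves towards the source. Inflammatory chemokines recruit neutrophils, monocytes and lymphocytes to injured tissue, and homeostatic ones place cells in marrow, gut, skin and lymph nodes. In bone marrow the stromal chemokine CXCL12 holds stem cells and myeloid precursors through the receptor CXCR4, whereas CXCR2 ligands draw neutrophils, and CCR2 ligands draw monocytes, into the blood.

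Values are given as a level, the log2 signal of a probe less that of its array's 75th percentile, so that 0 is a probe at that percentile. A probe has a level only where the scanner software marked it well above background. Where no array of a group was so marked, "at least N-fold" sets the brighter group against the dimmest signal that was well above background, or the probe's own signal where that was higher. Such a bound holds for the scanner's background subtraction alone: with normexp, a different background correction, the fold lay below the bound for 18 of 19 members given that way for iPS cells against BMMNCs, and for 19 of 21 for ES cells. Levels of different probes are not compared, since probes differ in their response. Between 54.6% and 59.0% of probes were well above background on an array and no spot was saturated. All 10 pluripotency markers (Pou5f1 and Sox2 among them) were well above background in ES cells and both iPS lines, and 4 of 10 in BMMNCs. All 13 granulocyte markers, 11 of 11 monocyte and macrophage, 11 of 11 B cell, 13 of 13 T and NK cell and 8 of 8 erythroid markers were well above background in BMMNCs. Limma was fitted over all 4 arrays and Benjamini-Hochberg adjustment ran over 21216 genes; the 1 residual degree of freedom comes from lines 7 and 13, and the single ES and BMMNC arrays are taken to vary as the lines do.

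Most receptor genes were well above background in BMMNCs alone. Of 17 receptor genes, 14 were well above background in BMMNCs, 4 in ES cells, and 4 and 3 in lines 7 and 13. By a looser mark, a positive and significant signal, 9 were counted in ES cells and 8 in each line. The counts that follow use the stricter mark. BMMNCs alone had 10 of the 17 (58.8%) above background, whereas 3.86% of the genes with a symbol had that pattern. No receptor gene was above background in ES or iPS cells alone. Of the genes with a symbol, 8.93% were so in ES cells and both lines but not in BMMNCs, a share that would put few of 17 genes there. Ligand genes were spread more evenly, with 18 of 32 above background in ES cells, 20 in line 7, 20 in line 13 and 17 in BMMNCs. Of the genes with a symbol, 72.7%, 73.9%, 71.7% and 67.1% were above background in ES cells, line 7, line 13 and BMMNCs. Of the ligands, 12 were above background on all 4 arrays (37.5%, against 61.2% of the genes with a symbol). In ES cells and both lines but not in BMMNCs there were 6 (18.8%, against 8.93%), and in BMMNCs alone 3 (9.4%, against 3.86%). The ligands Ccl1, Ccl11, Ccl12, Ccl20, Ccl22, Ccl28, Cxcl13, Cxcl15 and Cxcl17 and the receptors Ccr4, Ccr8 and Cxcr1 were not well above background on any array. The other 37 members, 23 ligands and 14 receptors, were tested.

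In the iPS lines against BMMNCs, the cell type they were made from, 13 of 14 receptor genes tested were lower and none was higher (limma, adjusted p of 0.05). Of 23 ligand genes, 10 were higher and 12 lower. Over all 21216 genes 38% were called higher and 37.8% lower, 75.8% in all, so that most genes passed. The median difference was -6.66 on the log2 scale for the receptors tested, -0.61 for the ligands and -0.01 for all genes. A gene entered the test through being readable on 1 array or more, so one seen in BMMNCs alone could be lower in iPS cells but not higher. The receptor median rests on 10 such genes and on iPS signals below background. In the same way, the 6 ligands seen in ES cells and both lines but not in BMMNCs could be higher but not lower. All 6 are among the 10 ligands called higher. Of members above background in BMMNCs and both lines, 3 receptors had a negative difference and none a positive one. Among such ligands, 9 differences were negative and 5 positive. The share of all genes with each sign was not worked out here, so these counts are description only. At 4-fold or more in both lines, 13 receptors and 8 ligands were lower and 7 ligands higher, with 15% of all genes lower and 15.2% higher. Ccr1, Cxcl3, Cxcl5 and Cxcl9 count there by a signal below background on the dim side, and their bounds are under 4-fold. In bulk RNA, fewer cells of a type and less RNA per cell cannot be told apart.

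**Figure D1:**
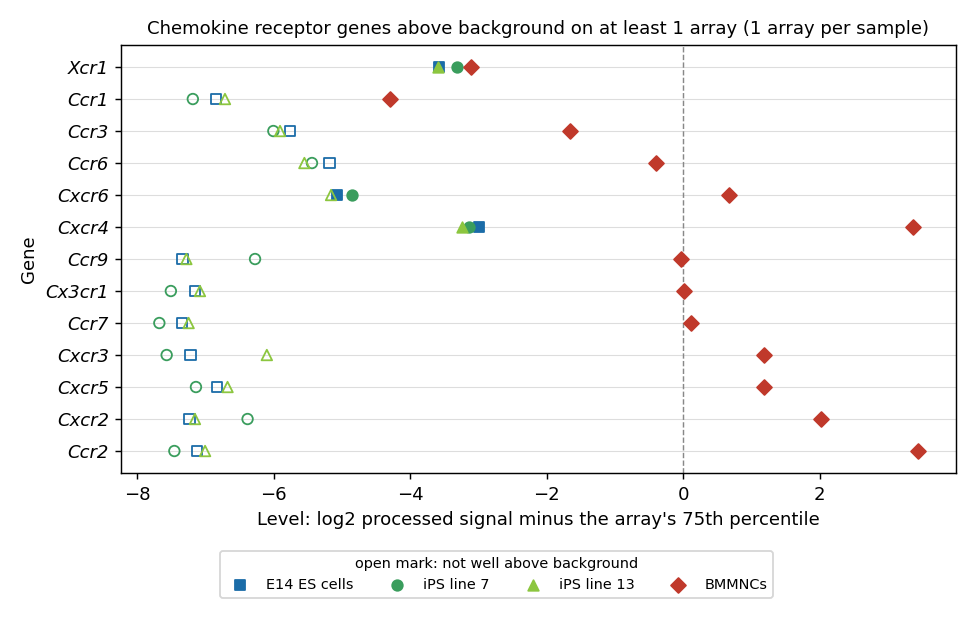
Levels (log2 signal relative to the 75th percentile of the array, horizontal axis) of 13 of the 14 receptor genes above background on at least 1 array, with 1 mark per array; open marks are not well above background, and genes are ordered by their difference between iPS lines and BMMNCs. BMMNCs lie to the right in each row, with the least distance for Xcr1, whose 4 arrays lie within -3.59 to -3.11.

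Receptors of monocytes and macrophages are given first. Ccr2, which brings inflammatory monocytes out of marrow, was at 3.44 in BMMNCs and not well above background in ES cells or either line, and it was at least 406.6-fold lower in the iPS lines (limma adjusted p = 0.000796), the greatest bound of any member. Cx3cr1, the receptor for fractalkine on patrolling monocytes and macrophages, was at 0.02 in BMMNCs alone and at least 38.1-fold lower in iPS cells. Its second probe was above background on no array. Ccr1, a receptor for several inflammatory CC chemokines, was at -4.29 in BMMNCs alone, and its bound of at least 1.92-fold is small because that level lies near the dimmest signal that could be read.

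Cxcr4, the receptor for CXCL12, was above background on every array, at -2.99 in ES cells, -3.14 in line 7, -3.24 in line 13 and 3.37 in BMMNCs. The 3 cultured lines lay within a narrow range far below BMMNCs. The difference of -6.56 (SE 0.11, 94.5-fold, limma adjusted p = 0.000719) was the greatest among receptors measured on both sides, and the second probe gave -6.01.

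Cxcr2, the main neutrophil chemokine receptor, was at 2.02 in BMMNCs and at least 152.8-fold lower in iPS cells, with neither iPS line nor ES cells above background. Receptors of lymphocytes followed the same pattern. Cxcr3, carried by effector T and NK cells, was at 1.19 in BMMNCs (at least 85.8-fold lower in iPS cells). Cxcr5, which places B cells in follicles, was at 1.18 (at least 85.4-fold), and Ccr7, which guides lymphocytes and dendritic cells to lymph nodes, was at 0.11 (at least 40.6-fold). Ccr9, the receptor of gut-homing and thymic T cells, was at -0.03 (at least 36.9-fold), and Ccr6, of B cells and some T cells, at -0.40 (at least 28.5-fold). Each of these 6 was well above background in BMMNCs alone.

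Cxcr6, a receptor of T and NK cells for CXCL16, was at 0.67 in BMMNCs and near background elsewhere, at -5.06 in ES cells and -4.85 in line 7, and not well above background in line 13. It passed as lower in iPS cells (limma adjusted p = 0.00103), with no fold given because it was measured in 1 of 2 lines. Ccr3, the eosinophil receptor, was at -1.66 in BMMNCs alone and at least 11.9-fold lower, and its second probe gave -2.38. Xcr1, a marker of cross-presenting dendritic cells, was the exception, at -3.58 in ES cells, -3.31 in line 7, -3.59 in line 13 and -3.11 in BMMNCs. Its difference of -0.34 (SE 0.17) did not pass (limma adjusted p = 0.172), and its second probe was above background on no array.

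Most leukocyte markers were lower in iPS cells too, as were 8 of 8 erythroid markers, where 37.8% of all genes were lower. In iPS cells against BMMNCs 13 of 13 granulocyte, 11 of 11 B cell and 12 of 13 T and NK cell markers were lower (limma, adjusted p of 0.05), Cd3e not passing, and 9 of 11 monocyte and macrophage markers were lower, with Marco higher (1.15, adjusted p = 0.0104) and Msr1 not past (-0.04). The summed level of the 13 granulocyte markers, as linear signal over the 75th percentile, was 0.42 in ES cells, 0.53 to 0.57 in the iPS lines and 2399 in BMMNCs. For 11 monocyte and macrophage markers it was 25.3, 22.1 to 26.5 and 454.1, most of the last from Lyz2, for 11 B cell markers 1.22, 0.97 to 1.09 and 171.9, and for 13 T and NK cell markers 2.22, 1.88 to 1.91 and 28.4. Of the granulocyte markers 3 were above background in ES cells and 2 in each line, of the B cell markers 6 on each of these arrays, and of the T and NK cell markers 5, 3 and 2 in ES cells, line 7 and line 13. The part of these cells in the receptor result was not tested.

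Among ligands measured on both sides, the greatest decreases in iPS cells were those of inflammatory CC chemokines. Ccl3 and Ccl4, the macrophage inflammatory proteins, were read on every array. Ccl3 was at -2.49 in ES cells, -3.17 in line 7, -3.29 in line 13 and 2.996 in BMMNCs. Ccl4 was at -3.06, -3.43, -3.48 and 2.53 in the same order. For both genes BMMNCs were far above the other arrays and ES cells slightly above both lines. Ccl3 was 74.8-fold lower in iPS cells (log2 difference -6.22, SE 0.11, limma adjusted p = 0.000719) and Ccl4 63.3-fold lower (-5.98, SE 0.095).

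Ccl6 and Ccl9, mouse chemokines of macrophages and myeloid cells that act through CCR1, had the same contrast. Ccl6 was at -0.77 in ES cells, 0.22 in line 7, 0.00 in line 13 and 5.62 in BMMNCs, a 45.6-fold difference between iPS cells and BMMNCs (SE 0.14 on the log2 scale, limma adjusted p = 0.000843). Ccl9 was at -1.25, -0.51, -0.73 and 3.58, 18.4-fold lower in iPS cells. Both were readable in every culture, with ES cells the lowest.

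Ccl5, which T cells, NK cells and platelets release, was at -3.23 in ES cells, -3.07 in line 7, -2.73 in line 13 and 2.22 in BMMNCs (34.8-fold lower in iPS cells, limma adjusted p = 0.00123). Xcl1, a product of activated T and NK cells, was at -1.25 in BMMNCs, above background there alone, and at least 15.8-fold lower in iPS cells. Ccl24, an eosinophil attractant, was at -3.11 in BMMNCs alone (at least 4.34-fold lower), with a second probe below background on every array.

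The interferon-induced ligands of CXCR3 were lower too. Cxcl10 was at -3.12 in ES cells, -2.39 in line 7, -2.45 in line 13 and -1.05 in BMMNCs, with a log2 difference of -1.37 (SE 0.097, 2.58-fold, limma adjusted p = 0.00311). Cxcl9 was at -3.44 in BMMNCs alone and at least 3.45-fold lower. The arrays of cultured cells lay below BMMNCs for both.

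Ligands of lymphoid tissue and gut had differences under 1 on the log2 scale. Ccl17, a CCR4 ligand of dendritic cells, was not well above background in ES cells and at -4.40, -4.35 and -3.77 in line 7, line 13 and BMMNCs. Its difference of -0.61 (SE 0.095) passed (limma adjusted p = 0.0155) but did not without the filter on dim probes, with an intensity trend, or with ES and iPS arrays as 1 group (adjusted p from 0.0537 to 0.124). Ccl19, a ligand of CCR7, likewise had no level in ES cells and was at -4.16, -4.06 and -3.13, lower by -0.98 (SE 0.11, limma adjusted p = 0.00717). Ccl25, the ligand of CCR9, was at -0.18 in ES cells, 0.26 in line 7, 0.36 in line 13 and 0.00 in BMMNCs, and its difference of 0.31 (SE 0.10) did not pass (limma adjusted p = 0.081).

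**Figure D2:**
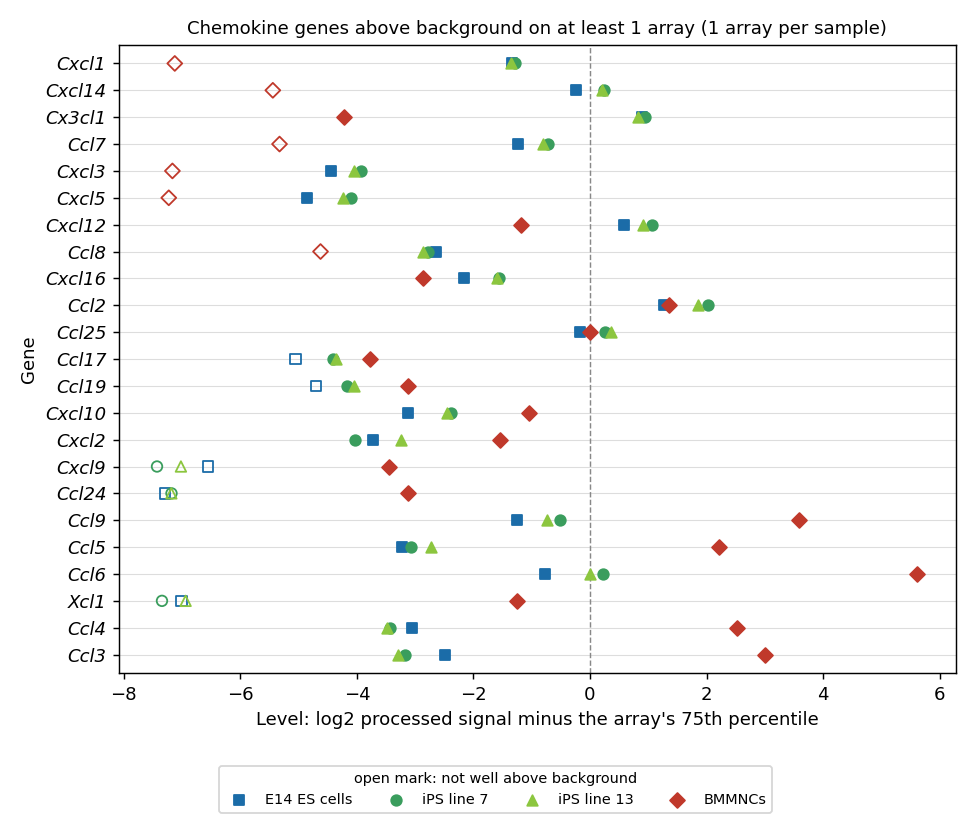
Levels (log2 signal relative to the 75th percentile of the array, horizontal axis) of the 23 ligand genes above background on at least 1 array, 1 mark per array; open marks are not well above background, and genes are ordered by their difference between iPS lines and BMMNCs. From Cxcl1 to Ccl8 the ES and iPS arrays lie to the right of BMMNCs, and at the lower end, from Ccl9 to Ccl3, BMMNCs lie to the right.

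The 10 ligands higher in the iPS lines included those of epithelial, stromal and endothelial cells. Cxcl14, a chemokine of epithelia and stroma, was at -0.24 in ES cells and at 0.23 and 0.20 in lines 7 and 13 and not well above background in BMMNCs, at least 35.5-fold higher in iPS cells (limma adjusted p = 0.000719). Cx3cl1, the membrane-bound fractalkine of endothelium and neurons, was at 0.89, 0.94 and 0.82 in ES cells, line 7 and line 13 and at -4.23 in BMMNCs, where it could still be read. It was 34.5-fold higher in iPS cells (log2 difference 5.11, SE 0.11, limma adjusted p = 0.000768), and 12.9-fold with normexp. The 3 cultured lines lay close together.

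Cxcl12, the ligand of CXCR4, was at 0.58 in ES cells, 1.06 in line 7, 0.92 in line 13 and -1.19 in BMMNCs. All 3 cultured lines lay above BMMNCs, and the iPS lines were 4.51-fold higher (log2 difference 2.17, SE 0.12, limma adjusted p = 0.00199). A probe of another Cxcl12 transcript gave 3.53, with no level well above background in BMMNCs. Cxcl16, a transmembrane chemokine that binds CXCR6, was at -2.16, -1.57, -1.60 and -2.86 in ES cells, line 7, line 13 and BMMNCs, 2.43-fold higher in iPS cells (SE 0.093 on the log2 scale, limma adjusted p = 0.00327). Its second probe gave 2.19. With ES and iPS arrays as 1 group the call for Cxcl16 was lost (log2 difference 1.09, limma adjusted p = 0.0506).

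The neighbouring genes Ccl2, Ccl7 and Ccl8 were higher as well. Ccl7, a CCR2 ligand, was at -1.24 in ES cells and at -0.73 and -0.81 in lines 7 and 13 and had no level well above background in BMMNCs, at least 17.9-fold higher in iPS cells (limma adjusted p = 0.000772); the second probe gave 4.06. Ccl8, whose mouse protein binds CCR8, was at -2.64, -2.78 and -2.86 and at least 3.49-fold higher. Ccl2, the major monocyte attractant, was at 1.27 in ES cells, 2.02 in line 7, 1.85 in line 13 and 1.36 in BMMNCs, so ES cells and BMMNCs were close and both lines above them. Its probe is spotted 10 times on each array, with a spread between spots of 0.046 to 0.067 (SD, log2). The difference of 0.58 (SE 0.13, limma adjusted p = 0.0333) was lost with median scaling (0.38, adjusted p = 0.0732), without the filter on dim probes (adjusted p = 0.104) and with ES and iPS arrays as 1 group (0.35, adjusted p = 0.452).

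The neutrophil-attracting CXCR2 ligands, which are induced through NF-kappaB in many tissues, differed in direction, with 3 higher and 1 lower. Cxcl1 was at -1.34 in ES cells and at -1.28 and -1.36 in lines 7 and 13 and not well above background in BMMNCs, at least 12.2-fold higher in iPS cells (limma adjusted p = 0.000719). Cxcl3 was at -4.44, -3.93 and -4.04 and Cxcl5 at -4.86, -4.10 and -4.24, neither above background in BMMNCs, with bounds of at least 1.93-fold and 1.70-fold. Cxcl5 did not pass with normexp background correction (0.23, limma adjusted p = 0.0963). Cxcl2 went the other way, at -3.73 in ES cells, -4.04 in line 7, -3.25 in line 13 and -1.55 in BMMNCs. It had the widest gap between lines among ligands above background in both, and was 4.27-fold lower in iPS cells (log2 difference -2.10, SE 0.42, limma adjusted p = 0.0264).

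The promoters of Cxcl1, Cxcl2 and Cxcl3 are shown because these neighbouring genes share a kappaB match yet Cxcl2 differed from the other 2 in direction. Each sequence is the 250 bases before the RefSeq start on GRCm38.p6, plus strand: chr5:90890995-90891244 for Cxcl1, chr5:90903649-90903898 for Cxcl2 and chr5:90785851-90786100 for Cxcl3. Capitals mark matches to the kappaB consensus and to TATAAA.
Cxcl1: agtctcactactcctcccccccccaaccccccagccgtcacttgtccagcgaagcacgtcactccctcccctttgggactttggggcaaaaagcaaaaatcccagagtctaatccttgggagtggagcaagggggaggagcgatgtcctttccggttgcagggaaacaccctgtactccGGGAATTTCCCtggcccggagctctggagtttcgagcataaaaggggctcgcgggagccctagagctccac
Cxcl2: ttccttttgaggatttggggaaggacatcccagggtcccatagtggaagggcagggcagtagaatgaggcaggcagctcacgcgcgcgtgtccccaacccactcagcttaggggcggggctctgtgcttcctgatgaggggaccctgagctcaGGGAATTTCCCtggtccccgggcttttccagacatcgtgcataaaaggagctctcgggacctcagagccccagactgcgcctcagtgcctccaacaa
Cxcl3: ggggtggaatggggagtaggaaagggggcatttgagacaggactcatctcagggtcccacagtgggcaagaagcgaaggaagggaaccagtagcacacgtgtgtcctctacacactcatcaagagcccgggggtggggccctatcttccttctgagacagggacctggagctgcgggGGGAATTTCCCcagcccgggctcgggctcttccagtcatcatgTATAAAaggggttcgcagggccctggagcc
The same 11 bases, GGGAATTTCCC, begin 71 bases before the start in Cxcl1, 97 in Cxcl2 and 73 in Cxcl3, and match the kappaB consensus on both strands with overlap. Of 27025 mouse promoters in the RefSeq table, 11 held these bases on either strand (0.0407%), 3 of them being these genes; the run was singled out after it had been seen.

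RefSeq promoters were matched for 37 of the 49 members, 23 ligands and 14 receptors. Within the 250 bases, on either strand, the kappaB consensus occurred in 7 of 23 ligand promoters (30.4%) and 2 of 14 receptor promoters (14.3%), against 7.03% of all promoters. The 7 ligands include the neighbours Cxcl1, Cxcl2 and Cxcl3, which hold the same site and are not separate cases. A promoter was matched for 6 of the 10 ligands higher in iPS cells and 9 of the 12 lower. The consensus was found in 2 of these 6 (33.3%), Cxcl1 and Cxcl3, and in 3 of these 9 (33.3%), Cxcl2 among them. TATAAA occurred in 8 of 23 ligand promoters (34.8%) and 2 of 14 receptor promoters, against 13.0% of all. GGGCGG, the GC box, occurred in 4 of 23 (17.4%) and 2 of 14, against 33.0%. A match describes letters in this window only, and binding was not measured.

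Fibroblast markers were mostly higher in cultured cells, where 38% of all genes were higher. In iPS cells against BMMNCs 16 of 17 were higher (limma, adjusted p of 0.05), with a median of 6.33, and S100a4 was 9.74-fold lower. All 17 were well above background in ES cells and both iPS lines and 8 of 17 in BMMNCs, where Col3a1, Col6a1, Pdgfra, Postn, Lum, Dcn, Fap, Twist1 and Prrx1 were not. Their summed level was 522.7 in ES cells, 568.9 to 614.3 in the iPS lines and 257.7 in BMMNCs, where most of the sum came from the S100a4 and Vim probes. Of the 11 monocyte and macrophage markers, 9 were above background in ES cells and both lines, Itgam and Cd163 being the exceptions. Higher calls against BMMNCs were not particular to fibroblast markers. Pluripotency markers were higher in iPS cells in 10 of 10 cases (median 10.34) and primitive endoderm markers in 7 of 8 (median 5.02). Of 8 endothelial markers 3 were higher and 3 lower. The part of any of these cell types in the ligand levels of the cultures was not tested.

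Background correction mattered for the dim members. Of 16 called members with a measured difference between iPS cells and BMMNCs, 7 moved by over 1.5 times with normexp, each to a smaller fold: Ccl3 to 40.7, Ccl4 to 37.6, Ccl5 to 22.4, Cx3cl1 to 12.9, Cxcl16 to 1.52, Cxcr4 to 57.3, the other being Cxcr6. With normexp in place of the scanner's background subtraction, Cxcl1 differed by 2.42, Cxcl3 by 0.37, Ccl7 by 2.22, Ccl8 by 0.44 and Cxcl14 by 3.56 on the log2 scale, all still higher and past the threshold (limma adjusted p of 0.05). Of the receptors, Ccr2 differed by -7.25, Cxcr2 by -5.90 and Ccr7 by -4.32 with normexp, and the same 13 were lower. The median of all genes moved from -0.01 to -0.20 with normexp or median scaling and to 0.12 with the authors' table; Ccl2, Ccl17, Ccl25 and Xcr1 were the members with differences smaller than 0.7.

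Runs of neighbours, with under 1 megabase between them in RefSeq, held 5 or more members at 4 places, and at 3 of the 4 all members past the threshold had the same direction. On chromosome 11 a first run holds Ccl2, Ccl7, Ccl11, Ccl12, Ccl8 and Ccl1, in which the 3 genes tested were higher in iPS cells and the other 3 were above background on no array. Further along, Ccl5, Ccl9, Ccl6, Ccl3 and Ccl4 were all lower. On chromosome 5 the run Cxcl5, Cxcl3, Cxcl15, Cxcl1 and Cxcl2 held 3 higher genes, 1 lower (Cxcl2, at its end) and 1 not tested. On chromosome 9 the receptors Ccr9, Cxcr6, Xcr1, Ccr1, Ccr3 and Ccr2 lie together, and all but Xcr1 were lower. The filter had fixed much of this agreement. Ccr9, Ccr1, Ccr3 and Ccr2 were readable in BMMNCs alone and could only be lower. Ccl7 and Ccl8 were not readable in BMMNCs and could only be higher, and the call for Ccl2 was lost under other settings, as given above. Every member of the second chromosome 11 run was readable on all 4 arrays. Neighbours in such runs are related in sequence, and cross-hybridisation between their probes was not tested.

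**Figure D3:**
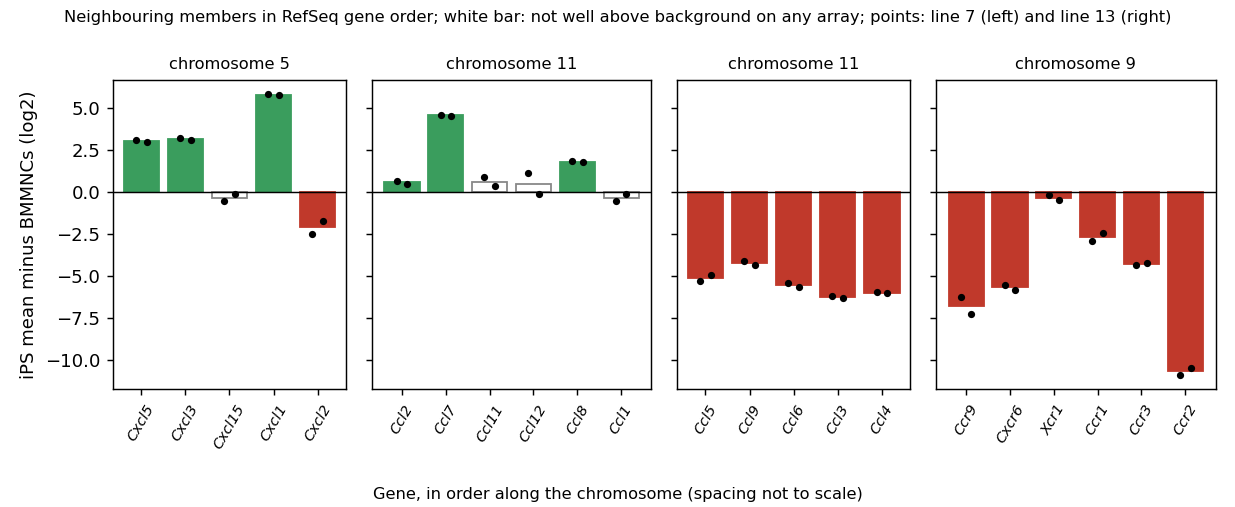
Log2 difference between the iPS mean and BMMNCs (bars) for members in the 4 runs of 5 or more neighbours, in gene order; points are line 7 (left) and line 13 (right), green bars lie above 0, red bars below, and white bars are genes not well above background on any array. The second chromosome 11 run is below 0 in full, from -6.22 to -4.20, and Xcr1 (-0.34) is the bar that did not pass in the chromosome 9 run.

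Ligands and receptors were then paired. Of 26 textbook pairs of members, chosen after the values were known, 8 had a higher ligand and a lower receptor in iPS cells than in BMMNCs, and in 8 both were lower. The first kind comprised Ccl2 and Ccl7 with Ccr2, Cxcl1, Cxcl3 and Cxcl5 with Cxcr2, Cxcl12 with Cxcr4, Cxcl16 with Cxcr6, and Cx3cl1 with Cx3cr1. The second kind included Ccl3, Ccl6 and Ccl9 with Ccr1. No pair had a higher receptor, since no receptor was higher. Ccr2, Cxcr2, Cx3cr1 and Ccr1 were readable in BMMNCs alone, so the filter had fixed their direction. It had likewise fixed that of the ligands Ccl7, Cxcl1, Cxcl3 and Cxcl5, which were not readable in BMMNCs. With every called receptor lower, the split between the 2 kinds of pair only restates the ligand calls. Pairs share members, so they are not independent of each other.

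**Figure D4:**
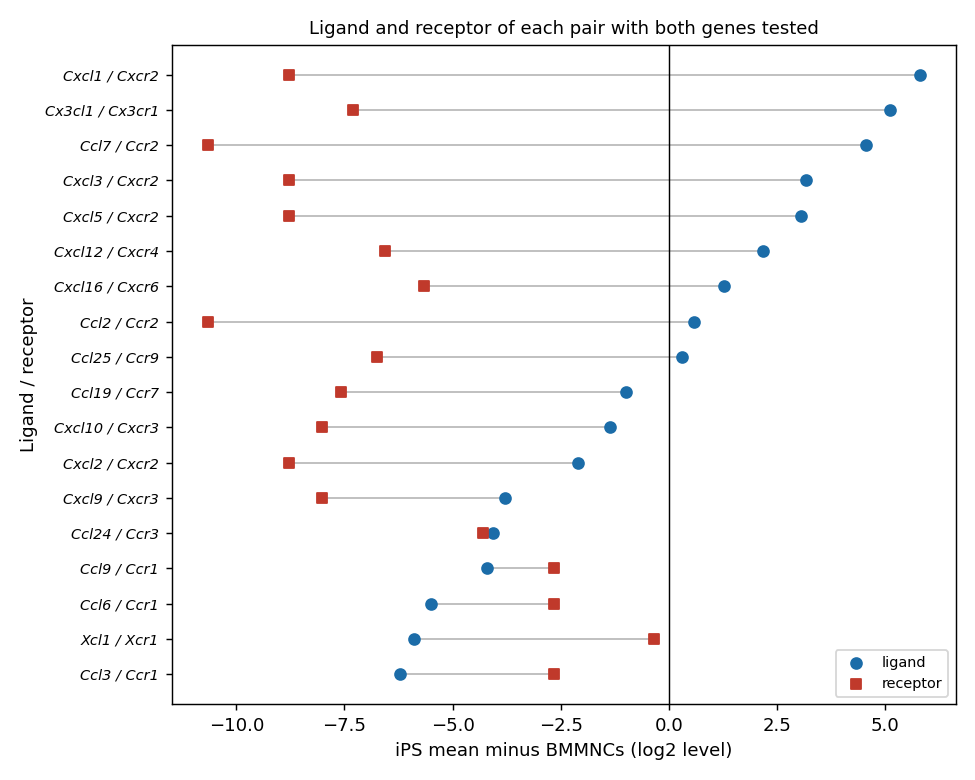
Log2 difference between the iPS mean and BMMNCs for the ligand (circle) and receptor (square) of each pair in which both genes were tested, ordered by the ligand; measured values are plotted where 1 side was not well above background. Receptors lie left of 0 in every pair, while ligands run from -6.22 (Ccl3) to 5.80 (Cxcl1).

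ES cells differed from BMMNCs in much the same members; this comparison shares the BMMNC array with the one above. Here 13 of 14 receptors were lower and none higher (limma, adjusted p of 0.05), and 9 ligands were higher and 12 lower, where 38.8% of all genes were higher and 34.7% lower. The 10 receptors seen in BMMNCs alone entered the test through that array, so they could not have been higher here either. Likewise, the 6 ligands seen in ES cells and both lines but not in BMMNCs could not have been lower. They are among the 9 called higher. Of members above background in both ES cells and BMMNCs, 4 receptors had a negative difference and none a positive one. Among such ligands 9 had a negative and 3 a positive difference. The share of all genes with each sign was not worked out here either. At 4-fold or more, 13 receptors were lower, 10 ligands lower and 6 higher, with 17.2% of all genes higher and 15.8% lower. Cxcl3, Cxcl5, Cxcl9 and Ccr1 count there by a signal below background on the dim side, with bounds of 1.41-fold, 1.05-fold, 3.23-fold and 1.80-fold. Ccr2 was at least 380.8-fold lower in ES cells, Cxcr4 82.6-fold, Ccl6 84.0-fold, Ccl4 48.1-fold and Ccl3 44.8-fold. Cx3cl1 was 34.7-fold higher, Cxcl14 at least 25.8-fold and Ccl7 at least 13.0-fold. For Ccl2 the difference of -0.09 (SE 0.15) missed the threshold (limma adjusted p = 0.611). Cxcl16 was higher by 0.70 (SE 0.11, limma adjusted p = 0.0154), a call lost with normexp, without the filter on dim probes and with ES and iPS arrays as 1 group (adjusted p from 0.0506 to 0.13). Cxcl5, called higher by 2.37, turned to -0.081 with normexp (limma adjusted p = 0.56). Cxcl3 was not past with normexp (0.15, limma adjusted p = 0.234), Cxcl2 not without the filter (adjusted p = 0.0611) and Ccl17 not with ES and iPS arrays as 1 group (adjusted p = 0.124).

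Between the iPS lines and ES cells no member passed the test, and none was 2-fold apart in both lines (limma, adjusted p of 0.05). Over all genes 1.93% were called higher and 2.78% lower, 4.71% in all, and 2.34% were 2-fold higher and 4.19% 2-fold lower. At an unadjusted p under 0.05, 13 ligands were higher in iPS cells and 2 lower, 15 of 37 members, against 31.3% of all genes. The call depended on the settings: with normexp 8 ligands were higher and 1 lower (9.88% and 14.3% of all genes), with only genes readable on all 4 arrays 8 and 2 (16.3% and 22.6%), and with an intensity trend 9 and 2 (15.6% and 20.7%), while no member passed with median scaling, quantile normalization, the authors' table, the mean of the probes or no filter on dim probes. Of 21 members above background in ES cells and both lines, 13 lay above ES cells in both lines, 4 below in both and 4 on either side. The mean was higher for 16 and lower for 5, where 44.3% of the 17192 genes readable on those 3 arrays were higher and 55.7% lower. By its second probe Ccl25 lay below ES cells in both lines (mean difference -0.26) and Cxcr4 above in both (0.36). Each is the reverse of its place in these counts.

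Ccl6 stood 0.88 above ES cells (SE 0.14, limma adjusted p = 0.0812), with line 7 at 0.22, line 13 at 0.00 and ES cells at -0.77. Cxcl10 stood 0.70 above (SE 0.097, adjusted p = 0.0696), Cxcl5 0.69 (SE 0.12, adjusted p = 0.0834), Ccl2 0.67 (SE 0.13, adjusted p = 0.0976) and Ccl9 0.63 (SE 0.15, adjusted p = 0.118). Ccl3 was the member farthest below, at -0.74 (SE 0.11, adjusted p = 0.0751), and Ccl4 was at -0.40 (SE 0.095, adjusted p = 0.124). Cxcl1 (0.02, SE 0.10) and Cx3cl1 (-0.01, SE 0.11) lay within 1 SE of ES cells, and the sign for Cx3cl1 turned under 4 other settings. The receptor Cxcr4 differed by -0.19 (SE 0.11), and by 0.36 with its second probe.

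The 17 fibroblast markers, whose summed levels stand above, had a median difference of 0.24 between iPS lines and ES cells with none past the threshold, and their part in these differences was not tested. Cx3cl1, Ccl17 and Ccl25 are on chromosome 8, where 601 genes readable on those arrays had a median difference of -0.39, and the part of that shift was not tested either. Between line 7 and line 13 no member was 2-fold apart with the brighter line above background, where 1.32% of all genes were higher in line 7 and 1.11% lower. Cxcl2 came nearest, with line 7 at -4.04 and line 13 at -3.25.

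**Figure D5:**
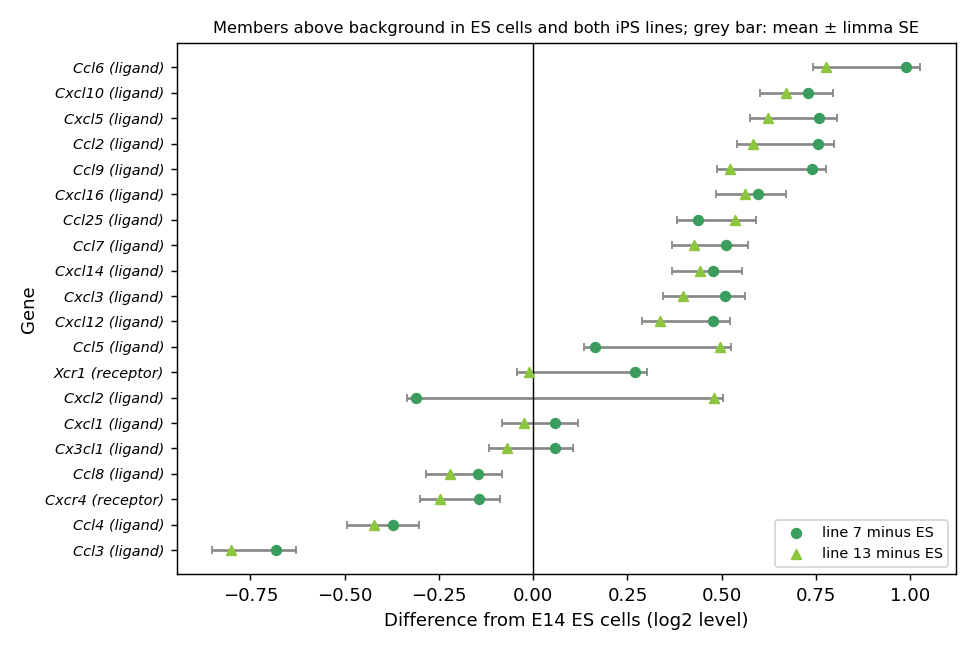
Difference from E14 ES cells in log2 level for 20 of the 21 members above background in ES cells and both iPS lines, with line 7 (circle) and line 13 (triangle); grey bars are the mean of the lines plus and minus limma's SE. Ccl6 (mean 0.88) is at the top and Ccl3 (mean -0.74) at the bottom, and no member passed the adjusted threshold.

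Other genes of the chemokine system were taken from lists written with earlier results of these data known, and are described by their counts. Of 5 receptors listed as atypical, most of which bind chemokines without moving the cell, 2 were higher in iPS cells than in BMMNCs and 2 lower (limma, adjusted p of 0.05), near the 38% higher and 37.8% lower of all genes, the shares against which the counts below stand. Of the 2 higher, 1 was well above background in line 7 alone and has no fold. Ackr3, a scavenger of CXCL12, was chosen after its values were seen. It was at -0.94 in ES cells and at 0.89 and 0.81 in lines 7 and 13 and not well above background in BMMNCs, at least 55.1-fold higher in iPS cells. It was also higher in iPS cells than in ES cells, by 1.79 (3.46-fold, limma adjusted p = 0.0427), a call lost with the authors' table (adjusted p = 0.0549) and without the filter on dim probes (adjusted p = 0.156). Ackr1, the erythroid and endothelial Duffy receptor, was at -3.08, -2.69 and 0.36 in ES cells, line 7 and BMMNCs, had no level in line 13 and did not pass (adjusted p = 0.0611). Ackr2 was at -4.49 in BMMNCs alone and lower in iPS cells (at least 1.67-fold), and Ccrl2, which presents chemerin, was lower by a log2 difference of -2.08 (limma adjusted p = 0.00209).

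Of 8 genes with other symbols that were listed for a link to chemokines, 5 were lower in iPS cells than in BMMNCs and 2 higher. The list is mixed, and some of its genes are not chemokines. Pf4, platelet factor 4, was at 1.18 in ES cells, 1.89 in line 7, 1.66 in line 13 and 4.11 in BMMNCs (5.04-fold lower in iPS cells, limma adjusted p = 0.00255). Ppbp, the platelet CXCR2 ligand, was 13.8-fold lower, and Cmtm7, which is not a chemokine, 10.8-fold lower. Ccl27a, a skin chemokine, and Mif, a cytokine that also binds CXCR2 and CXCR4, were 2.14-fold and 3.25-fold higher.

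The signalling genes downstream of the receptors were lower in 24 of 29 cases and higher in 2, Plcb3 and Pak1, with a median of -1.99 against -0.01 for all genes. Rac2, the leukocyte GTPase of cell movement, was 337.1-fold lower and Fgr, a myeloid Src kinase, 162.1-fold lower. Gnai2, the main Gi subunit of leukocytes, was lower by -1.99, while for the widely expressed Gnai3 a difference of -0.17 missed the threshold (limma adjusted p = 0.188).

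Of 13 genes that switch receptors off, 12 were lower and 1 higher, where 37.8% of all genes were lower and 38% higher. Grk2 and Grk3, receptor kinases, were 6.22-fold and 22.4-fold lower, and the G protein regulators Rgs14 and Rgs2 were 48.1-fold and 31.5-fold lower. Rgs16, the exception, was 21.2-fold higher in iPS cells, at 1.42 in ES cells, 1.88 in line 7, 1.83 in line 13 and -2.55 in BMMNCs. Of 10 other chemoattractant receptors 9 were lower, among them the formyl peptide receptors Fpr1 and Fpr2 (at least 249.7-fold and at least 363.5-fold) and Ltb4r1, the leukotriene B4 receptor (102.2-fold). C3ar1 was the 1 that was higher.

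Inducers of chemokine genes were lower in 16 of 19 cases. Il1b, measured in 1 of 2 iPS lines, was lower than in BMMNCs (limma adjusted p = 0.000719) and Tlr2 16.3-fold lower. Tlr2 was also lower than in ES cells, by -1.43 (limma adjusted p = 0.0469), which did not pass with the authors' table, quantile normalization, the mean of the probes or no filter (adjusted p from 0.0508 to 0.173). Nfkb1 was 2.16-fold lower and Nfkb2 1.30-fold lower. Relb, Il6 and Il1r1 were higher, by 1.01, 1.23 and 0.50. Of 14 proteases and matrix partners 8 were lower and 5 higher, the latter near the 38% of all genes. Dpp4, the peptidase that trims CXCL12, was 6.65-fold lower and Mmp9 52.5-fold lower, whereas the higher genes were Mmp2, Mmp14, Sdc1, Sdc4 and Itgb1. Sdc4, a heparan sulfate proteoglycan, was the 1 of these higher than in ES cells too (1.38, limma adjusted p = 0.045), which did not pass with the authors' table (adjusted p = 0.0557), without the filter (0.168) or with the mean of the probes (0.22, adjusted p = 0.251).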

How the data were processed

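Cy3-labelled RNA of 4 samples was hybridised to 1 slide, read in 1 scan as the file headers give it, so slide and scan do not differ between groups. The authors deposited intensities: Agilent Feature Extraction 9.5 (per the submitters' processing notes; 9.5.1.1 per the file headers) gave a processed, background-subtracted signal per spot. The authors' deposited value table was found to be the same intensity times 1 factor per array (1.54 to 2.66; column medians 139.9, 135.9, 133.6 and 106.2 for ES, line 7, line 13 and BMMNCs), linear and not centred by gene; how the factors were set is unknown.

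Left out were control spots and 14 probes with spots marked as outliers. Spots of a probe were averaged, and log2 signals were taken relative to the array's 75th percentile. A probe was well above background where a share of at least 0.5 of its spots carried that mark. Accessions matched to RefSeq (GRCm38.p6) named 22948 of 41174 probes; a gene took its brightest probe. Genes readable on 1 array or more were tested with limma 3.58.1 in R 4.3.3 (prior of 1.80 degrees of freedom, SD 0.093), and the code was tested on simulated data. Adjusted p of 0.05 was the threshold; size rules were 4-fold against BMMNCs and 2-fold elsewhere, in both lines. The number of arrays limits the precision; where a probe had 10 spots, their median SD was 0.058 to 0.060 (log2).

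Members with a level on any array are named, with at most 4 genes per other list beside those completing short counts, which were chosen after their values were seen. Members and lists were chosen with earlier results of these data known. Normexp, planned on mean signals, used median signals, the foreground column in the files. Other settings changed the background correction, the scaling, the source of values, the filter on dim probes, the choice of probe, the prior trend, the groups of the fit and, without a test, the lines included. Values of 2 genes are not reported here one by one, and the figures and ligand and receptor pairs leave them out; counts over members and lists include them.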

Additional observations from a re-analysis of the deposited data

How the results depend on the processing

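The 13 lower receptors kept their direction and call against BMMNCs, in iPS and ES cells, under each other setting that could test them. For the 10 that were well above background in BMMNCs alone, the filter had fixed the direction. Other settings therefore do not test it for them. Limma counts of members changed most with the filter. Among genes above background on all 4 arrays, 5 ligands were higher and 7 lower in iPS cells than in BMMNCs, with 3 receptors lower, and 3, 7 and 3 in ES cells, because fewer members are tested. In iPS cells against ES cells, 8 ligands were higher and 1 lower with normexp, 8 and 2 above background on all 4 arrays, and 9 and 2 with an intensity trend. Over all genes that comparison gave 2096 higher and 3040 lower with normexp, 2424 and 3354 above background on all 4 arrays, 3301 and 4388 with a trend, 269 and 344 with the mean of the probes, and 0 and 0 in limma with the authors' table or without the filter, against 409 and 590 as reported; the cause was not tested. By size, normexp left 4 ligands 4-fold higher in iPS cells than in BMMNCs (all genes 1609 higher, 2035 lower), 3 higher and 6 lower in ES cells (1734 and 2104), 266 and 365 genes 2-fold apart between iPS and ES cells, and 56 and 64 between lines. Leaving out a line gave 764 to 873 genes 2-fold higher than in ES cells (496 with both, since both lines had to pass) and no limma test, as no residual degree of freedom is left.

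Sign changes touched differences that had not passed, but for Cxcl5. Ccl24, Ccr1, Ccr2, Ccr3, Ccr9, Cxcr3 and Cxcr5 were well above background in neither ES nor iPS cells, so their differences there compare background signals. As first computed, Ccr9 differed by 0.56 and Cxcr3 by 0.39. Between iPS and ES cells Cx3cl1 became 0.010 (normexp), 0.084 (median scaling), 0.027 (quantile) and 0.029 (authors' table); with normexp Ccr3 became 0.019, Ccr9 -0.013, Cxcr3 -0.023 and Cxcr6 -0.043; with quantile normalization Ccr1 became 0.069, Ccr2 0.024 and Cxcr5 0.093 (0.011 with median scaling); with the mean of the probes Ccl24 became -0.018, Ccr3 0.18 and Cxcr4 0.080. Between ES cells and BMMNCs Ccl2 became 0.35 and Ccl25 0.15 with ES and iPS arrays as 1 group, Ccl25 0.30 with the mean of the probes, and Cxcl5, called higher (2.37), -0.081 with normexp; the cause was not tested. The median over all genes in that comparison was 0.06, and -0.13, -0.23 and 0.15 with normexp, median scaling and the authors' table. Counting spots that were positive and significant, a looser mark, put 9 receptors above background in ES cells and 8 in each line. No paired analysis was possible because the groups share fewer than 2 replicate numbers.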
